A study of Drosophila melanogaster with 2 samples.

Results

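Mediator and TFIID subunit genes were taken as the protein-coding genes whose name in the BDGP6 annotation of the Drosophila melanogaster genome (dm6) begins with MED or Taf and a digit. This rule found 40 genes among 13968 protein-coding genes, 25 of Mediator, 14 of TFIID and Taf12L, a testis paralog of Taf12 known also as rye. Occupancy was measured by chromatin immunoprecipitation and sequencing in whole white prepupae, the immobile stage that opens metamorphosis, of a transgenic strain that stably expresses CG10631 with a C-terminal GFP, with an antibody against the GFP. The study has 1 group, with biological replicates numbered 2 and 3, and no other condition, so no differential test was possible. Sex was not recorded, and a whole animal mixes all tissues, so a peak cannot be assigned to a cell type. No peak list from animals without the tag was analysed here, and the labels do not say whether the endogenous CG10631 gene was intact.

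Mediator is a large complex that links sequence-specific activators to RNA polymerase II, with head, middle and tail modules and a kinase module that binds reversibly. TFIID, made of TBP and its associated factors (TAFs), recognises core promoters and starts the assembly of the polymerase at them, and several TAFs also serve in the acetyltransferase complex SAGA. Fly spermatocytes express testis-specific paralogs of several TAFs, which are needed for the genes of sperm differentiation. Genes of both general complexes are active in most cells.

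The peak lists were a list of 8399 peaks that passed the comparison of replicates by the irreproducible discovery rate (IDR), a merged list of 30000 regions from both replicates, and lists of 30000 regions for each replicate. A gene counted as bound when the summit of an IDR peak lay within 500 bp of any of its annotated start sites. In the merged and replicate lists the same distance was used, and a gene there is said to have a region. The signal of a region is the authors' value, in the peak caller's own units, and describes and ranks regions within a list.

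The promoters of MED30, MED27 and MED17, which had the strongest peaks among the members, and of MED25, a weaker one with a DREF element, are shown. Those of closely spaced gene pairs that had no region are shown beside them, because the space between opposed start sites is where most of the members' summits lay. By this choice the opposed start sites of the bound examples stand farther apart. Members not shown include unbound Taf6 and MED19, with spacings of 333 and 415 bp, and bound Taf2 and Taf11, with 79 and 107 bp. Each sequence comes from the dm6 genome, runs 5′ to 3′ on the strand of the named gene, and ends at the base before its start site. It covers the interval up to the start site of the opposed gene, or 300 bases where that interval was longer, and no annotated exon lay inside it. Capitals mark the DREF element TATCGATA, the TATA box TATAAA, the E-box CAGCTG and the 6-mer CAGTGC, each searched on both strands. The bound examples are MED27 (chr3R:5654862-5655138, plus strand, opposed to elm), MED30 (chr3L:654090-654362, minus strand, opposed to Rev1), MED17 (chr3R:18188772-18189071, plus strand, opposed to CG12321) and MED25 (chr3R:20008647-20008946, plus strand, opposed to Hs6st). The summit fell on base 154 of the MED27 sequence, base 95 of MED30, base 155 of MED17 and base 98 of MED25.
MED27: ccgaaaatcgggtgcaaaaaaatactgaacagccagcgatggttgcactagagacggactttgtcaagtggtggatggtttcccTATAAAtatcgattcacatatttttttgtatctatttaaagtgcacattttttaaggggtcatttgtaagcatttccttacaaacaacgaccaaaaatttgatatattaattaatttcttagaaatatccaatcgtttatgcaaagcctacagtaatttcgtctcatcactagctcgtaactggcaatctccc
MED30: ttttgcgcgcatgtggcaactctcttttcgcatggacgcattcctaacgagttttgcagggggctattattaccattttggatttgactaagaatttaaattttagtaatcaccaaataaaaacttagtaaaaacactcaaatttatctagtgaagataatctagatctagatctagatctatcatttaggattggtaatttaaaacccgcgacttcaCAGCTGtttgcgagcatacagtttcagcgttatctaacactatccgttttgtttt
MED17: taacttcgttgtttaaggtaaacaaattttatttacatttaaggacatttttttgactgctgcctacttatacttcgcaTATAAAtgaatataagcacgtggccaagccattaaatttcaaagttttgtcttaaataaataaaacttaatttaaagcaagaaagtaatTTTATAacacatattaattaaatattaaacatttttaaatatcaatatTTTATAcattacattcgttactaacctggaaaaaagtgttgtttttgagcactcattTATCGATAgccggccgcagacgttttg
MED25: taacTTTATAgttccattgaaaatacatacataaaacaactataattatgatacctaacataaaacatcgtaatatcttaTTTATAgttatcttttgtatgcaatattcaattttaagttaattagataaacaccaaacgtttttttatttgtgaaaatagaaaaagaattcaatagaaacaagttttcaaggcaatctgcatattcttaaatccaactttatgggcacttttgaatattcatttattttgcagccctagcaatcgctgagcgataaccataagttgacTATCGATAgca
The pairs without a region are MED28 (chr3R:25476916-25477002, plus strand, opposed to CG4553), MED18 (chrX:1865836-1865908, plus strand, opposed to Gcna), MED20 (chr2L:8072849-8072894, minus strand, opposed to Trf) and Taf10b (chr2L:2767846-2767889, minus strand, opposed to Taf10).
MED28: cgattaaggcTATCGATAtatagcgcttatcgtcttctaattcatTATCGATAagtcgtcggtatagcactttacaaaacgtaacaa
MED18: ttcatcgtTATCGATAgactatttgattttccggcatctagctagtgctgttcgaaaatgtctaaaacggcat
MED20: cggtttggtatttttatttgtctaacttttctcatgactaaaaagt
Taf10b: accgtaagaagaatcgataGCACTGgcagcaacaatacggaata
The G and C content was 35.7% for MED27, 35.2% for MED30 and 26.7% for both MED17 and MED25, against 35.6% for MED28, 38.4% for MED18, 28.3% for MED20 and 43.2% for the Taf10b and Taf10 interval. MED28 has a pair of DREF elements and no region, while the elements of MED17 and MED25 lie at the gene's end of the sequence, away from the summit.

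Of the 40 genes, 13 were bound (32.5%, Wilson 95% interval 20.1 to 48.0%), where 19.4% of all protein-coding genes were bound. Mediator had 9 of 25 bound (36.0%, 20.2 to 55.5%) and TFIID 4 of 14 (28.6%, 11.7 to 54.6%). These intervals cover counting error only and treat genes as independent, although Taf10 and Taf10b share a promoter interval. Each contains the other complex's share, and with so few genes the complexes were not tested against each other. Among the 4199 strongest IDR peaks, where 13.1% of all genes were bound, 7 Mediator genes and 1 TFIID gene remained bound, Taf2. Under other rules the members bound were 11 within 250 bp (14.4% of all genes), 14 within 1000 bp (23.2%), 14 when any base of a peak counted (21.1%) and 12 from the outermost 5′ end (16.8%). From the 8399 strongest regions of replicate 3 alone 12 were bound (19.7% of all genes), and from those of replicate 2 alone 14 (20.1%). In all of these the members' share lay above that of all genes. With only peaks in no other coding promoter, it lay below, with 2 of the 40 bound (5%). Of all 13968 genes, 1283 had a strongest promoter peak of this kind. No test of enrichment was made.

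With the weaker regions of the merged list included, where 34.3% of all genes had a region, Mediator had 11 of 25 (44.0%) and TFIID 7 of 14. The replicate 2 list gave 14 Mediator and 6 TFIID genes a region, with 35.0% for all genes. The replicate 3 list gave 10 and 6, with 35.2% for all genes. The share of TFIID genes in the replicate lists was 42.9% in each, and that of Mediator was 56.0% in replicate 2 and 40.0% in replicate 3.

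**Figure D1:**
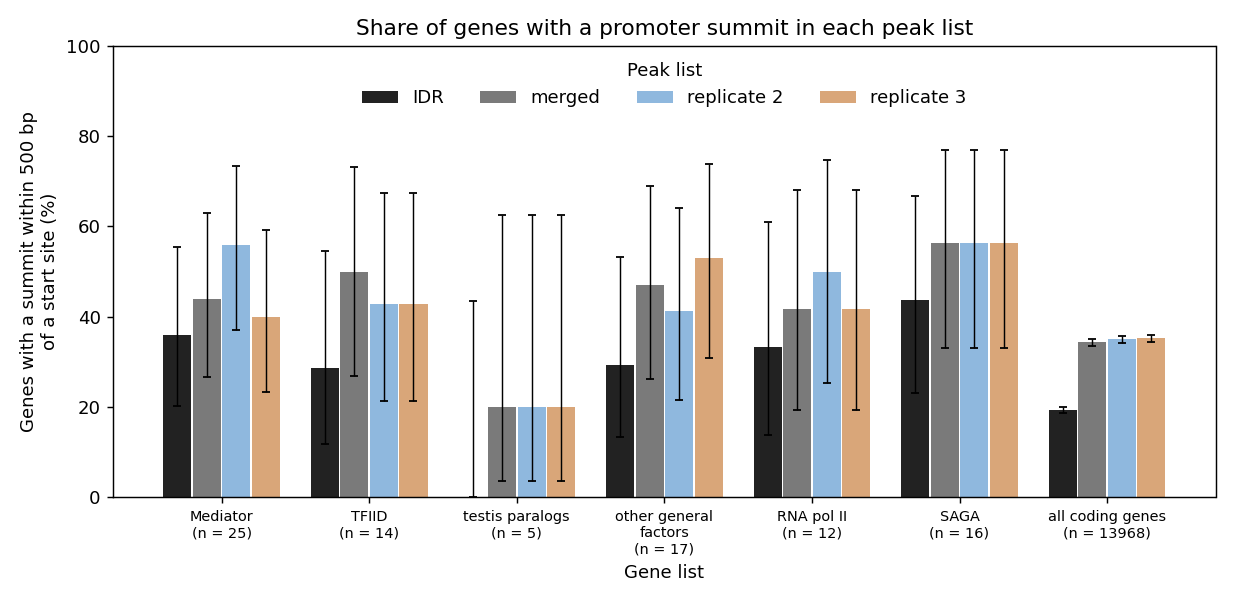
Share of genes with a summit within 500 bp of a start site, in percent, for each gene list and peak list. Bars are shares and error bars are Wilson 95% intervals, which cover counting error only; Mediator (36.0%) and TFIID (28.6%) overlap widely in the IDR list, testis paralogs stand at 0, and all protein-coding genes at 19.4%.

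Signals of the bound Mediator genes had a median of 329, those of the bound TFIID genes of 151, and those of all 2712 bound genes of 269 (the strongest promoter peak of each gene). Of the 9 Mediator peaks 7 lay above 269, as did 1 of the 4 TFIID peaks. The lists of members were not tested against each other.

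The strongest peak of the group was at MED30, a subunit found in metazoan Mediator (gene on 3L, 652987 to 654089, minus strand). The peak (3L, 654089 to 654402) had a signal of 905 and ranked 286 of the 8399, with 476 in replicate 2 and 438 in replicate 3 (457 ± 27.1, SD, n = 2). Both replicates placed it among their 328 strongest regions. Its intergenic summit lay 179 bp upstream of MED30 and 95 bp from the start of Rev1, a translesion DNA polymerase gene.

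MED27, a subunit at the border of head and tail, came next (3R, 5654883 to 5655156, signal 720, rank 481). It had 359 in replicate 2 and 366 in replicate 3 (363 ± 4.53, n = 2), so the replicates differed by little. The summit was intergenic, 124 bp upstream of MED27 and 154 bp from the start of elm. Of the other genes placed with these subunits here, MED14, the backbone that joins the modules, and MED28 were not bound.

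In the head module, which contacts the polymerase, 3 of 7 genes were bound (42.9%), where 19.4% of all protein-coding genes were. MED17, its central scaffold, had the strongest peak (3R, 18188706 to 18189145, signal 567, with 297 in replicate 2 and 272 in replicate 3, 284 ± 18.1, n = 2). MED6 had a signal of 321 (3R, 9768230 to 9768669), with 141 and 176 in replicates 2 and 3 (158 ± 24.7, n = 2). MED8 had 188 (2R, 20326927 to 20327366), with 100.5 and 89.6 (95 ± 7.71, n = 2), at an intergenic summit 341 bp upstream. All 3 summits were thus found in both replicates, with MED6 higher in replicate 3 and the others in replicate 2. MED6 was the exception among all 13 in that its summit lay 52 bp inside the transcript, in its 5′ UTR and an intron of the opposed gene Naa80, at 1 of the 5 annotated start sites of the gene, and MED6 was not bound when only the outermost 5′ end was used. MED11, MED18, MED20 and MED22 of this module were not bound.

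In the middle module, 3 of 9 genes were bound (33.3%, against 19.4% of all protein-coding genes), with signals from 299 to 443. MED31 led (3R, 4641585 to 4642024, signal 443, with 225 in replicate 2 and 215 in replicate 3, 220.2 ± 7.49, n = 2). Its summit lay in the 5′ UTR of CG9775, 33 bp from that gene's start, and 158 bp from both MED31 and slx1, which codes for a structure-specific nuclease subunit. MED4 had a signal of 329 (3L, 7250471 to 7250910), with 150 in replicate 2 and 176 in replicate 3 (163 ± 18.6, n = 2), and the peak shared its promoter only with an antisense RNA gene, asRNA:CR43470. MED7 had 299 in the merged list and 153 in replicate 2 (3R, 10760899 to 10761338). No region of replicate 3 overlapped it, and whether the lists hold every region at this place is not known. The MED7 summit lay 87 bp upstream of the gene and 191 bp from Cap-H2, a condensin II gene. MED1, MED9, MED10, MED19, MED21 and MED26 were not bound.

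In the tail module, which many activators contact, 1 of 5 genes was bound (20.0%), near the 19.4% of all protein-coding genes. MED25 had a signal of 182 (3R, 20008524 to 20008963), with 96.5 in replicate 2 and 86.0 in replicate 3 (91.2 ± 7.42, n = 2), below the median of all bound genes. The summit lay 203 bp upstream of MED25 and 232 bp from Hs6st, a heparan sulfate sulfotransferase gene. MED15, MED16, MED23 and MED24 were not bound. The modules were assigned after the values were seen, and their shares describe 4 to 9 genes each.

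Mediator subunits with other names added 1 bound gene to the complex. skd, the Med13 subunit of the kinase module, had a signal of 315, with 149 in replicate 2 and 161 in replicate 3, at a summit 395 bp from a start site that also lay in the promoter of Pdss2. kto (Med12), CycC and Cdk8, the rest of that module, were not bound, and Cdk8 had a region in the replicate 3 list only (54.9). ix, the Med29 subunit, had a merged region of 81.0 below the IDR list. With these 5 genes Mediator had 10 of 30 bound (33.3%), where 19.4% of all protein-coding genes were.

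Taf2, which contacts DNA around the start site, had the strongest peak among the TFIID genes (3L, 9888706 to 9889145, signal 536, rank 906). The replicates gave 273 and 264 (269 ± 6.17, n = 2), and their ranks of 841 and 972 were close. The summit lay in the 5′ UTR of CalpB, a calpain protease gene, 164 bp from its start and 243 bp upstream of Taf2.

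Taf11 and Taf13 pair through their histone folds, and both genes were bound at lower signals. Taf11 (2L, 9763212 to 9763651) had 180, with 91.2 in replicate 2 and 83.9 in replicate 3 (87.6 ± 5.11, n = 2), and Taf13 (2L, 20093809 to 20094248) had 121, with 58.5 and 56.9 (57.7 ± 1.13, n = 2). Both summits lay in the 5′ UTR of the opposed gene, und for Taf11 and nesd for Taf13, each 57 bp from that gene's start and 170 and 180 bp upstream of the TAF. Among the other histone-fold TAFs, Taf4, Taf6, Taf8, Taf9, Taf10, Taf10b and Taf12 were not bound, and Taf3, a partner of Taf10, was.

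Taf3, whose protein carries a PHD finger, had the weakest bound promoter (4, 467004 to 467443, signal 111, rank 7596). Its replicates had the ratio farthest from 1, with 66.2 in replicate 2 and 38.1 in replicate 3 (52.2 ± 19.9, n = 2), and its −log10 q-value of 2.23 was lower than the 4.04 reached by 11 of the 13 peaks. The ratio of replicate 3 to replicate 2 over the promoter peaks of all bound genes had a median of 1.03 and a 5th percentile of 0.733, and the Taf3 ratio of 0.576 lay below it. Taf3 was not among the 8399 strongest regions of replicate 3. Taf13 had a −log10 q-value of 2.74.

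**Figure D2:**
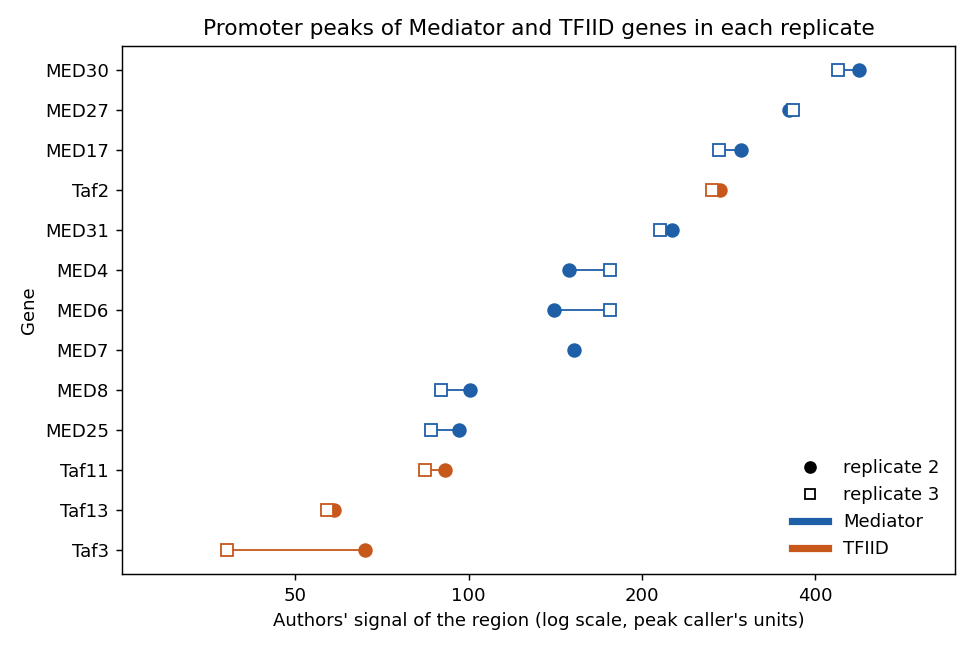
Signal of the region that overlaps each bound member's IDR peak in replicate 2 (filled circles) and replicate 3 (open squares), in the peak caller's units on a log scale, with Mediator in blue and TFIID in orange. Most pairs lie close together, from 476 and 438 at MED30 to 58.5 and 56.9 at Taf13; Taf3 is the widest pair and MED7 has no replicate 3 value.

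TFIID genes without an IDR summit included Taf1, the largest subunit and the scaffold of the complex, Taf5, a WD40-repeat subunit, Taf6, Taf7, Taf10, Taf10b and Taf12, which had no region within 500 bp in any of the 4 lists. Taf8 had a merged region of signal 60.6, with 35.2 in replicate 2 and 27.6 in replicate 3. Taf4 had a merged region of 47.1 and Taf9 of 30.4, each found in 1 replicate list only. These 3 regions ranked 13587, 17543 and 29710 of the 30000, with signals below those of all IDR peaks. Tbp, the TATA-binding subunit, had no region in any list. With it TFIID had 4 of 15 bound (26.7%), where 19.4% of all protein-coding genes were.

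In all, 18 of the 40 genes had no region near a start site in any list. Beside the 7 TFIID genes above these were MED1, MED9, MED10, MED14, MED15, MED18, MED20, MED22, MED24, MED28 and Taf12L. The share of all genes without a region in any list was not computed. In the merged list alone 22 of the 40 members had no region, as did 9176 of all 13968 protein-coding genes. MED21 and MED26 had weak merged regions of 55.6 and 79.3. MED11, MED19 and MED23 had a region in the replicate 2 list only, at 27.7, 58.5 and 17.8. MED16 had one in the replicate 3 list only, with a signal of 111 and a rank of 3633, with no region there in the replicate 2 or merged list; as at MED7, it is not known whether these lists are complete.

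The distance to the nearest IDR summit set the unbound genes apart from each other. MED15 missed the 500 bp limit narrowly: a summit of signal 313 in the promoter of CG4297 lay 554 bp upstream of it, while Taf3 at 396 bp was the bound gene nearest to the limit. MED20 followed at 1024 bp, Taf12 at 1404 bp, and Taf10b and Taf10 at 1774 and 1819 bp. Taf6 lay 8473 bp from the strongest peak of the whole list, the one at CG14100 with a signal of 3942. MED21, on 3L at 25114924 to 25115946, was farthest, 577918 bp from the nearest IDR summit.

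The 5 testis paralogs of TAFs were nht (of Taf4), can (of Taf5), mia (of Taf6), sa (of Taf8) and Taf12L (of Taf12). None was bound. The Wilson 95% interval of 0 of 5 reached 43.4%, and the limit of 3 counts for a count of 0 was 60.0%, so it does not separate them from the TFIID genes or from the background of 19.4%. nht had a merged region of 34, ranked 25709, and regions of 20.6 in replicate 2 and 29.6 in replicate 3. Their summits lay at 66, 0 and -457 bp from the nearest start site, so they need not be 1 region. The nearest IDR summit to can lay 676 bp from its start (signal 143), and those to sa, nht, mia and Taf12L lay at 11341, 14383, 21775 and 52503 bp. The general counterparts Taf4, Taf5, Taf6, Taf8 and Taf12 were not bound either, so no bound and unbound pair of paralogs was seen. Trf and Trf2, relatives of TBP, were also not bound, and Trf2 had a merged region of 77.4.

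Most members had a close neighbour on the opposite strand. A start site of another protein-coding gene, directed away from the member, lay within 1000 bp upstream of 31 of the 40 genes (77.5%), against 36.2% of all protein-coding genes. The bound genes were nearly all of this kind: 12 of the 31 with such a partner were bound (38.7%) and 1 of the 9 without (11.1%), MED4. Over all protein-coding genes the shares were 32.0% and 12.3%. Within each arrangement the members' share lay closer to that of all genes than 32.5% did to 19.4%, but only 9 members had no partner. The part of gene arrangement in the difference between 32.5% and 19.4% was not tested. MED6 is among the 12, although its summit lay more than 500 bp from any start site of its partner Naa80.

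**Figure D3:**
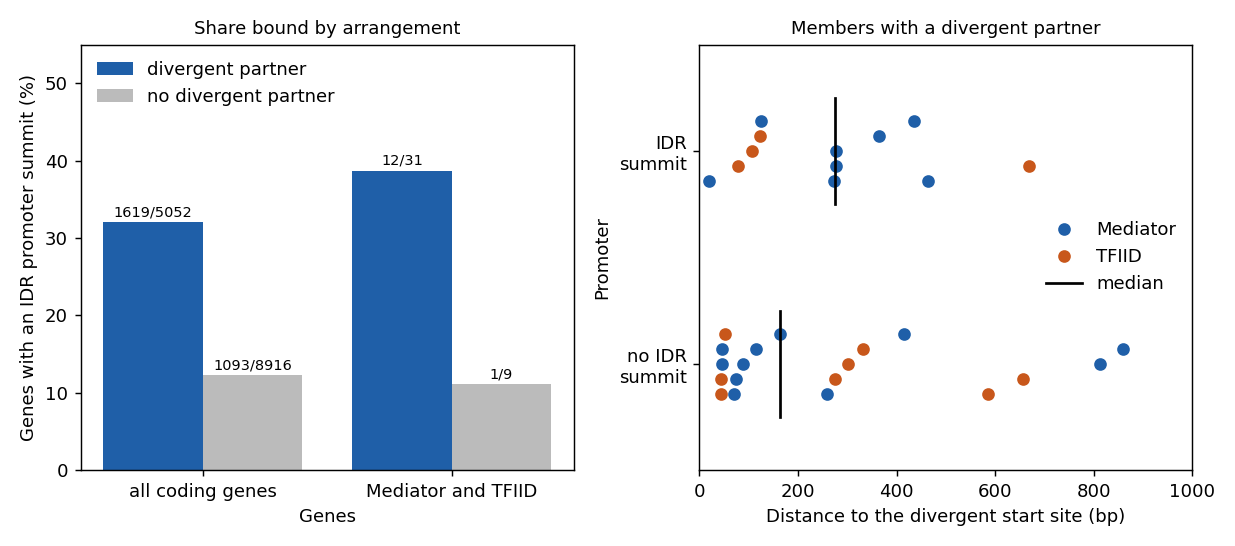
Left, share of genes with an IDR promoter summit, in percent, for genes with and without an opposed start site within 1000 bp upstream, with counts above the bars. Right, distance to the opposed start site in bp for the 31 members that have one, split by IDR summit (black lines are medians); with a partner 38.7% of members and 32.0% of all genes were bound, and without one 11.1% and 12.3%.

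The spacing of the opposed start sites varied from 19 to 859 bp among these 31 members. Its median was 276 bp for the 12 bound and 164 bp for the 19 unbound members, and 309 and 287 bp for all bound and unbound genes with a partner. At 201 to 500 bp, 6 of 11 members were bound, all of Mediator, where 40.7% of all such genes were bound. At up to 100 bp 2 of 10 were bound, where 24.8% of all such genes were, at 101 to 200 bp 3 of 5 (21.2%), and at 501 to 1000 bp 1 of 5 (26.9%). The closest pair of start sites was that of MED6 and Naa80, 19 bp apart. MED6 counts among the 2 bound genes at up to 100 bp. Its summit, however, lay at another of its start sites, more than 500 bp from any Naa80 start. Next, Taf10 and Taf10b stood 45 bp apart with their starts facing away, MED20 and Trf 47 bp, MED10 and PDCD-5 46 bp, and Taf12 and Ho, a heme oxygenase gene, 53 bp, and these members had no region in any list. These spacing classes were chosen after the values were seen.

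Because the promoters are shared, a summit could rarely be given to the member alone. At 11 of the 13 bound genes (84.6%) the summit also lay within 500 bp of a start site of another protein-coding gene, against 52.7% of all 2712 bound genes. Only MED4 and MED6 had a peak in no other coding promoter. The member was the nearer gene at 4 of the 11, MED7, MED17, MED25 and MED27, and the neighbour was at least as near at the other 7, which included all 4 TFIID genes. Summits lay upstream of the member's start site at 12 of 13 genes, with a median of -170 bp, and the figure for all bound genes was 88.8% with a median of -166 bp.

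**Figure D4:**
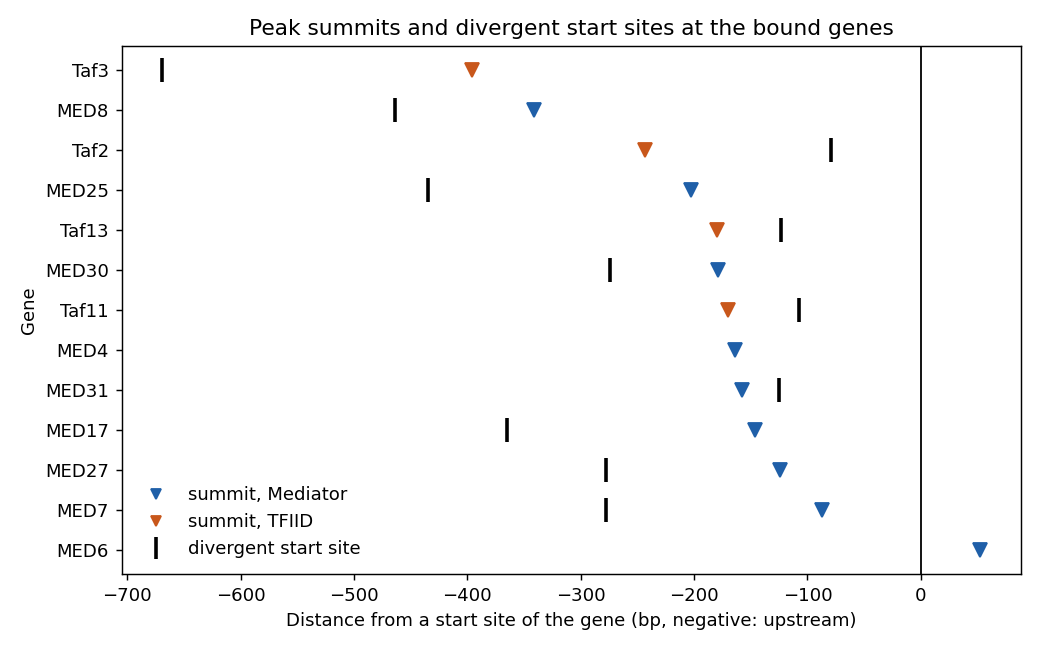
Position of the IDR summit (triangles, Mediator in blue and TFIID in orange) relative to the nearest start site of each bound member, in bp, negative being upstream, with vertical marks for the opposed start site. The mark is left out for MED6, which has 5 start sites, and MED4 has no opposed gene within 1000 bp; at MED7, MED8, MED17, MED25, MED27, MED30 and Taf3 the summit lies between the opposed start sites, and at MED31, Taf2, Taf11 and Taf13 it lies inside the neighbour.

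By chromosome arm, 6 of 10 members on 3R were bound, where 19.4% of all genes of that arm were. The counts were 3 of 12 on 3L (20.6% of all its genes), 2 of 7 on 2L (19.2%), 1 of 5 on 2R (16.7%), 1 of 2 on chromosome 4 (26.3%) and 0 of 4 on X (21.7%), the last being MED18, MED22, Taf8 and Taf9. The counts per arm were too small to be compared with the shares of all genes, and no test between arms was made. The median length of the 40 genes was 1318 bp, against 2165 bp for all protein-coding genes, and 35 of them had 1 annotated start site. Of all genes with 1 start site 14.1% were bound, and of these 35 members 12 (34.3%). Of the 5 members with more start sites 1 was bound, against 34.1% of all such genes.

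Core promoter elements of broadly active genes were common in the members. In the 300 bases from 250 before to 50 after the outermost 5′ end, the DREF element TATCGATA, which the factor DREF binds in promoters of growth and replication genes, occurred in 8 of the 40 (20.0%) and in 9.36% of all protein-coding promoters. The core GGTCACACT of Ohler motif 1, an element of promoters without a TATA box, occurred in 12 (30.0%) and in 6.04% of all. DREF elements were in the promoters of 5 of the 13 bound genes (MED7, MED8, MED17, MED25 and Taf3) and 3 of the 27 unbound (MED9, MED18 and MED28). Motif 1 was in 1 bound gene, MED8, which held both elements, and 11 unbound ones, among them MED10, MED20, MED22, Taf1, Taf4 and Taf5. Over all genes 26.5% of promoters with a DREF element and 22.8% of those with motif 1 were bound, both above 19.4%.

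Windows reaching 100 bp to either side of the summit were searched for elements that lay wholly inside. A DREF element was found in 0 of the 13 members' windows and the motif 1 core in 0, against 5.46% and 1.25% of the 1996 promoter peaks of all bound genes, shares so low that 0 of 13 is near the background. The centres of the DREF elements in bound members lay from 98 bp (MED7, where the element crossed the window's edge) to 365 bp (Taf3) from the summit. TATAAA, on either strand, was within 100 bp of 9 of the 13 summits (69.2%), against 43.3% of all promoter peaks. The same windows had a median G and C content of 29.4% in the members and 32.3% in all promoter peaks, and the part of base composition was not tested. In the promoters, TATAAA was found in 5 of 13 bound and 16 of 27 unbound members and in 45.8% of all promoters, the E-box CAGCTG in 6 of 40 against 17.6%, the GAGA element GAGAG in 7 of 40 against 29.7%, the initiator core TCAGT in 11 of 40 against 51.5%, and CAGTGC in 8 of 40 against 14.9%.

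Other parts of the general transcription machinery gave shares of like size to those of Mediator and TFIID, where 19.4% of all protein-coding genes were bound. Their shares by gene arrangement were not computed. The other general transcription factors had 5 of 17 bound (29.4%, Wilson 95% interval 13.3 to 53.1%), with signals of 208 at TfIIA-S, a TFIIA subunit, and 135 to 138 at CycH, Tfb1 and Cdk7, which belong to TFIIH. The peak at Ssl1, a TFIIH subunit, had a signal of 2342 and ranked 15, and its summit lay also in the promoter of Chro. RNA polymerase II subunits had 4 of 12 bound (33.3%, 13.8 to 60.9%), Polr2B at 837, Polr2H at 575, Polr2J at 521 and Polr2A, the largest subunit, at 194. SAGA had 7 of 16 bound (43.8%, 23.1 to 66.8%), led by its acetyltransferase Gcn5 at 871, Ada2b at 553 and wda, a paralog of Taf5, at 487. All these intervals overlap those of Mediator and TFIID, and no difference between the complexes was tested. Many of these summits cannot be given to the named gene alone. Those of Polr2A, Polr2B, Polr2H, Polr2J and Cdk7 lay also in another coding promoter, as did those of all bound SAGA genes except Ada2b. The Ada2b summit lay 480 bp downstream of a start site, near the 500 bp limit. The peaks of TfIIA-S, CycH, Tfb1 and Ada2b lay in no other coding promoter.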

How the data were processed

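Chromatin immunoprecipitation peak lists on dm6 from 2 biological replicates of whole white prepupae were used. Per the descriptions deposited with them, the merged list and each replicate's list derive from the alignments and a control file, and the IDR list from these lists. The name of the aligner, peak caller or filters is not given in the sources used here, nor is the IDR cutoff. The signal of each region and its −log10 q-value are the authors' values. Signals were compared between genes within a list, between the merged and IDR lists, and between the replicate lists, whose scales may differ. Read depth is unknown, the labels do not say whether animals were pooled, and no control data were analysed here.

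Start sites came from the BDGP6.54 annotation (Ensembl release 115), whose arms contain all deposited dm6 coordinates, with transposable elements left out. Replicate values are from the strongest region overlapping an IDR peak by at least 1 bp. Shares have Wilson 95% intervals (scipy 1.17.1). No enrichment test was made. Assignment of summits to start sites was checked on simulated data. Named genes were all members, the genes sharing their peaks and the listed related genes; members, lists and motifs were chosen with earlier results of these data known. Of the planned names, e(y)1 and bip2 are Taf9 and Taf3 here, and Tfb2 did not match. Alternatives were other windows, peak lists, overlap rules, start sites and subunit lists, and each replicate left out. The dm3 lists were not used.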

Additional observations from a re-analysis of the deposited data

How the results depend on the processing

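No paired analysis was possible because there is 1 group. Across the settings tried, the count of bound members ranged from 2 to 18 of 40, and without either replicate, using the 8399 strongest regions of the other, it ranged from 12 to 14. Without replicate 2 and replicate 3, Mediator had 9 and 10 of 25 and TFIID 3 and 4 of 14. With the 4199 strongest peaks all members fell to 8 and TFIID to 1. In the merged list TFIID rose to 7, the testis paralogs to 1 and all genes to 4792. The testis paralogs also had 1 within 1000 bp, and 1 when any base of a region counted. Without peaks shared with another coding promoter 2 of 40 members were left (5%), both of Mediator, which had 7 to 11 under the other settings. Among all 13968 protein-coding genes 1283 had an unshared strongest promoter peak, a larger share than that of the members. The median signal of bound members, 321, was 329 within 250 bp, 490 in the 4199 strongest peaks, 185 in the merged list and 314 from the outermost 5′ ends, and 145 and 176 without replicate 3 and replicate 2, on the scale of the other replicate's list. Single members changed status at 250 bp (MED8 and Taf3 lost), at 1000 bp or by any base (MED15 gained), without replicate 2 (MED7 and Taf3 lost, MED16 gained) and without replicate 3 (MED19 gained); those of MED7 and MED16 rest on lists that may not be complete there.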
